A study of Mus musculus with 9 samples.

Results

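Haematopoietic stem cells (HSCs) sorted from the bone marrow of mice that received a spermidine supplement during brain-region inhibition were compared with HSCs from mice under the same inhibition without the supplement. The comparison takes 3 libraries labelled inhibition with spermidine and 3 labelled inhibition, 6 of the 9 libraries in the series, and covers all 19454 listed genes. All 3 groups of the series are labelled wild type, and the labels give no strain, age, sex, source animal or batch. Both groups compared here carry the intervention named in their titles, inhibition of mPFC and PAG, usual abbreviations of the periaqueductal grey (PAG) and the medial prefrontal cortex (mPFC). The protocol calls it chemogenetic, which means that neurons are given a designed receptor that a drug then engages. The library names AAV and AAV-SPD mark both groups with the usual abbreviation of the adeno-associated virus, a gene carrier. The labels name no virus serotype, promoter, drug, or dose, route and duration of spermidine. The other 3 libraries are labelled control, with no brain intervention named, and their levels are given here as background. They stood apart in HSC and platelet markers, in both directions. Procr was at 0.0606, 0.161 and 0.155 CPM (the count scaled to a fixed library size) in control against 4.10 CPM with inhibition and 7.58 CPM with spermidine, whereas Slamf1, also an HSC marker, was at 109, 102 and 102 CPM against 17.6 and 13.7 CPM. Kit was at 43.3 CPM in control, between the 36.5 CPM of inhibition and the 46.4 CPM of spermidine, and Pf4 (platelet factor 4) at 2664, 2679.5 and 2668 CPM against 104 and 97.3 CPM. Each library was made from 1500 sorted cells with 12 PCR cycles. From the series' title, the work concerns spermidine made by gut bacteria, its loss under psychological stress and the ageing of HSCs, so the question is how HSC expression differs when spermidine is supplied under inhibition.

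HSCs divide rarely and give rise to all blood lineages. As they leave this resting state, they lose transcription factors such as HLF and the surface receptor PROCR and pass through lymphoid or myeloid progenitor stages, and myeloid progenitors then switch on enzymes of the primary granule and later of the secondary granule. Spermidine is a polyamine, made from ornithine by the enzymes ODC1 and SRM, taken up from food and gut bacteria, and removed through acetylation by SAT1. It is also the donor from which DHPS and DOHH build hypusine, a modified amino acid of the translation factor eIF5A, and this route is known to sustain translation of TFEB, a transcription factor for autophagy and lysosome genes.

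Total counts were 17231707 to 25360110 in the inhibition libraries and 16096117 to 22467091 in the spermidine libraries, so that 3 counts, taken as the limit for a gene with none, correspond to 0.117 to 0.184 CPM. Log2 levels correlated across genes at 0.989 to 0.991 within the inhibition group, 0.992 to 0.993 within the spermidine group and 0.97 to 0.972 between them. Beyond counting noise, genes varied within groups by a common 4.07% (edgeR's biological coefficient of variation). The labels do not say that libraries came from separate animals, so the p-values measure the spread between these libraries, which may be technical. In bulk samples, fewer cells of a type and less RNA per cell cannot be told apart.

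The number of genes counted as higher or lower depended on the scaling. TMM scaling, which sets a trimmed mean of the genes' log ratios to 0, gave factors of 0.931 to 0.95 for the inhibition and 1.12 to 1.14 for the spermidine libraries. Under it 4213 of 14461 tested genes were higher with spermidine (29.1%) and 4183 lower (28.9%). The test was edgeR's quasi-likelihood test, with a threshold of 0.05 on the adjusted p. When libraries were scaled by their total count alone, 7703 genes were higher (53.3%) and 1801 lower (12.5%). The share of calls that were higher therefore moved from 50.2% to 81.1%, and the median log2 fold change from 0.027 to 0.287. Under both scalings together, 4213 genes were higher (29.1%) and 1801 lower (12.5%). Another 355 genes were called lower by TMM and higher by total count. At a change of at least 2-fold, 1366 genes were higher and 271 lower under both scalings. For 62.8% of genes under TMM, and 68.6% under total count, every library of one group lay above every library of the other. In what follows, log2 fold changes and CPM use TMM unless stated, and counts of list members are read against these background shares.

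The change also varied with the level of the gene. Of 4724 genes under 1 TPM (a level per transcript length) on average, 1914 were higher and 388 lower, with a median log2 fold change of 0.46. Of 1111 genes at 100 TPM or more, 119 were higher and 817 lower, with a median of -0.22 under TMM and 0.039 under total count. Calls among low genes were thus mostly rises and calls among abundant genes mostly falls under TMM, and single genes are to be read against the median of their level.

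**Figure D1:**
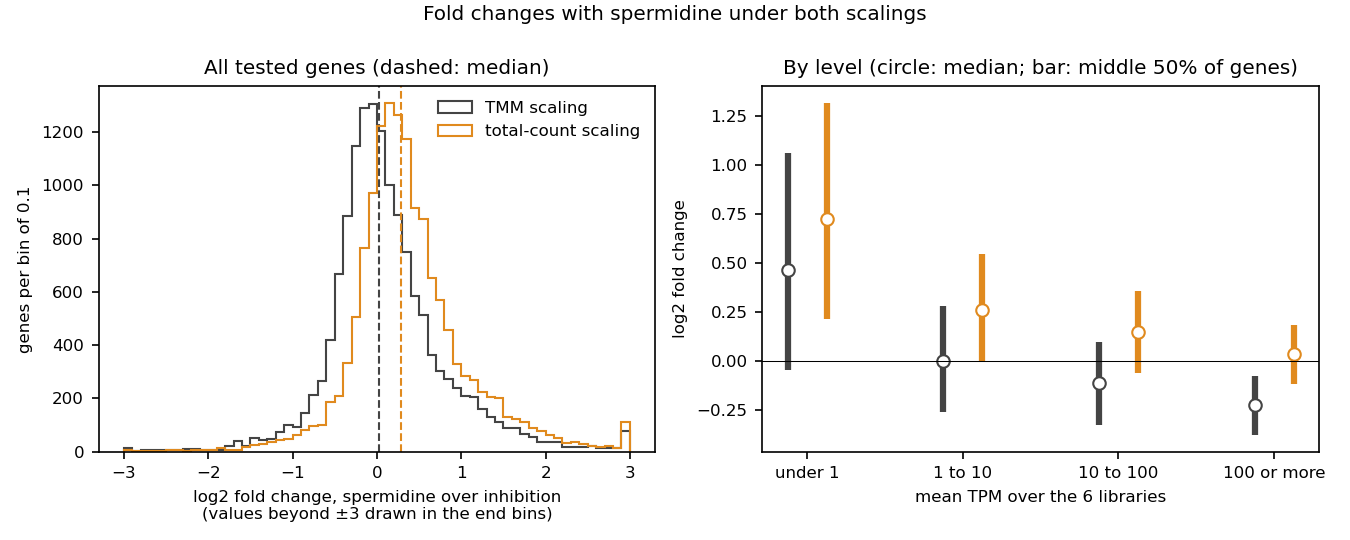
Left: number of tested genes by log2 fold change (spermidine over inhibition, bins of 0.1) under TMM and total-count scaling, with the medians of 0.027 and 0.287 as dashed lines. Right: median (circle) and middle 50% (bar) of the log2 fold change by mean TPM over the 6 libraries, falling from 0.46 under 1 TPM to -0.22 at 100 TPM or more under TMM.

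Among abundant genes, those that rose most with spermidine were Ctla2b, Nr4a1, Ctla2a, Rgs1, Gimap1, Kdm6b, Tsc22d1 and Pim1, each at 100 CPM or more on average and higher under both scalings. Ctla2a, which encodes an inhibitor of cysteine proteases, stood at 3068, 3085 and 3062 CPM with inhibition and 6159.9, 6314 and 6343 CPM with spermidine. Every spermidine library lay above every inhibition library, with a log2 fold change of 1.03 ± 0.02 SE, edgeR adjusted p 4.78e-15, and the mean level per transcript length went from 3047 to 8209 TPM. Its neighbour Ctla2b rose with it, from 369 ± 10.1 to 825 ± 24.8 CPM (SD, n = 3). They are near-identical copies that can share reads, so how the counts divide between them is uncertain. Nr4a1, a nuclear receptor induced early after stimulation, was at 76.6, 78.3 and 77.6 CPM with inhibition and at 155, 160.5 and 161 CPM with spermidine. The groups did not overlap and differed by a log2 fold change of 1.04 ± 0.03 SE, edgeR adjusted p 4.06e-13. Kdm6b, a demethylase of histone H3 lysine 27, went from 151 ± 4.60 to 284 ± 10.5 CPM, and Pim1, a kinase downstream of cytokine receptors, from 294 ± 7.84 to 512 ± 6.52 CPM. Tsc22d1, a transcriptional regulator induced by TGF-beta, rose from 319.9 ± 4.06 to 568 ± 8.16 CPM, and Gimap1, a GTPase of lymphocytes, from 69.1 ± 1.21 to 132 ± 0.974 CPM. Control levels were 2201 CPM for Ctla2a, 37.8 CPM for Nr4a1, 114 CPM for Kdm6b and 266 CPM for Pim1. All 4 were below the inhibition mean as well as the spermidine mean.

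Among named genes at 5 CPM or more on average, the largest rises were of 2 Y-linked genes. Eif2s3y, a translation initiation factor subunit (chromosome Y, 1010543 to 1028847, plus strand, coordinates from GENCODE M21 on mm10), was at 1.60, 1.58 and 2.00 CPM with inhibition and 19.3, 20.3 and 20.6 CPM with spermidine, a log2 fold change of 3.54 ± 0.12 SE, edgeR adjusted p 3.21e-13. Ddx3y, an RNA helicase, was at 1.97, 1.33 and 1.40 CPM against 14.9, 14.7 and 14.6 CPM, a log2 fold change of 3.26 ± 0.12 SE, edgeR adjusted p 1.34e-12. Both have X-linked copies of similar sequence that can share reads. The Y-linked Kdm5d and Uty, examined after these values were seen, went from 5.21 to 10.1 CPM and from 4.19 to 7.39 CPM. In control libraries, Eif2s3y and Ddx3y were at 0.195 and 0.0755 CPM but Kdm5d and Uty at 13.7 and 88.5 CPM. The counts per TPM of Eif2s3y and Uty shifted between groups by 0.53 and 0.53 on the log2 scale, so the transcripts counted differed as well. The groups thus differed in Y-linked transcripts, the labels give no sex, and the part of this difference in other results was not tested.

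Many of the next largest rises were of genes with little known role in blood cells. They included the vomeronasal receptors Vmn1r91 and Vmn1r76, the odorant receptors Or4q3 and Or52n2b, Meiob, a meiosis protein, Reg2, a secreted pancreatic protein, Zfp488, a zinc finger factor of oligodendrocytes, and Ttc8, a protein of cilia. Vmn1r91 stood at 2.82, 2.12 and 2.50 CPM against 8.34, 7.55 and 7.69 CPM, a log2 fold change of 1.68 ± 0.12 SE. Over all odorant and vomeronasal receptors tested, receptors that serve smell in the nose, 475 of 630 were higher and 13 lower (536 and 5 by total count), with a median log2 fold change of 1.08. These 630 are the receptors, of 1159 listed, that passed the filter on low counts. A gene can pass that filter through a single group, and the part of the filter in this balance was not tested. The summed share of counts of all 1159 was 0.105% to 0.107% in inhibition and 0.238% to 0.244% in spermidine libraries, with 0.127% in control. Odorant and vomeronasal receptors form families of similar sequence whose reads may be shared. Genes under 1 TPM as a class were higher more often than lower too (1914 against 388 of 4724), and the part of this class-wide shift in the receptors' rise was not tested. Xlr3b, an X-linked gene expressed in lymphoid cells, rose from 10.5 ± 1.07 to 26.8 ± 1.08 CPM. Myl10, a myosin light chain, was by far the most abundant of the genes with these next largest rises. It was at 54.4, 56.0 and 60.3 CPM with inhibition and 138, 140.2 and 143 CPM with spermidine. Its log2 fold change was 1.30 ± 0.04 SE, edgeR adjusted p 1.35e-13, and control libraries averaged 4.39 CPM.

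Genes that mark HSCs were mostly higher with spermidine. Of 39 genes of HSC identity and quiescence, 26 were higher, 3 lower and 10 did not pass, against 29.1% higher and 28.9% lower among all tested genes. Their median log2 fold change was 0.40, against 0.027 for all genes. By total count 34 were higher, against a background of 53.3%, and 1 lower. The gene lower under both scalings was Cd48, which is on the list as a marker that HSCs lack. Hlf, a transcription factor that holds HSCs in quiescence (chromosome 11, 90336536 to 90390895, minus strand), was at 21.6, 22.1 and 23.1 CPM with inhibition and 38.2, 36.8 and 37.7 CPM with spermidine. The libraries did not overlap, and Hlf differed by a log2 fold change of 0.75 ± 0.05 SE, edgeR adjusted p 7.22e-09. Procr, the protein C receptor EPCR, was at 3.62, 4.77 and 3.90 CPM against 7.49, 7.23 and 8.02 CPM, also without overlap (log2 fold change 0.86 ± 0.12 SE, edgeR adjusted p 1.27e-05). In control libraries Hlf averaged 2.49 CPM and Procr 0.125 CPM, the latter near the level that a count of 0 allows.

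Several transcription factors of HSCs are named on this list. Lmo2 rose from 126 ± 2.92 to 197 ± 2.06 CPM, Meis1 from 81.2 ± 2.31 to 113 ± 3.59 CPM, Hoxa9 from 40.4 ± 1.73 to 62.9 ± 1.48 CPM and Gata2 from 9.53 ± 0.766 to 14.5 ± 1.11 CPM (SD, n = 3), with log2 fold changes of 0.65, 0.48, 0.64 and 0.61. Mecom, which encodes the self-renewal factor EVI1, was an exception, with log2 fold change 0.16 ± 0.09 SE (edgeR adjusted p 0.153, and 5.89e-04 by total count). Cdkn1c, the CDK inhibitor p57 of quiescent HSCs, rose from 3.32, 2.66 and 3.15 to 7.17, 5.40 and 5.75 CPM, a log2 fold change of 1.02 ± 0.15 SE.

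Surface genes used to sort HSCs did not move as 1 block. Kit rose from 36.5 ± 0.932 to 46.4 ± 1.05 CPM and Ly6a, which encodes Sca-1, from 83.5 ± 2.41 to 94.4 ± 0.648 CPM. Cd34 and Flt3, which mark progenitors that have left the long-term HSC pool, rose as well, from 55.7 ± 1.63 to 78.6 ± 2.94 CPM and from 18.7 ± 0.60 to 25.8 ± 0.671 CPM. Cd48, a marker of progenitors that is absent from HSCs, fell from 239 ± 3.27 to 182 ± 4.42 CPM and passed under both scalings. Slamf1, which encodes the HSC marker CD150, was at 15.3, 17.6 and 20.0 CPM against 15.0, 13 and 13.3 CPM. It passed as lower under TMM (log2 fold change -0.36 ± 0.08 SE, edgeR adjusted p 0.00149) but not by total count (log2 fold change -0.10, edgeR adjusted p 0.27). Per transcript length, Cd48 stood at 126 TPM with inhibition and 117 TPM with spermidine, and Slamf1 at 2.80 TPM in both groups, so a gene that HSCs lack was the more abundant of the pair in libraries labelled HSC. Control means were 6.21 CPM for Ly6a, 9.21 for Cd34, 12.4 for Flt3, 205 for Cd48 and 104 for Slamf1.

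Genes of myeloid differentiation fell. Of 26 early myeloid and primary granule genes, 25 were lower and none higher, with a median of -0.91, and 21 remained lower by total count. All 32 secondary granule and mature neutrophil genes were lower under TMM, with a median of -1.60, and 31 of them by total count, against 12.5% of all genes. S100a8, a calprotectin subunit (chromosome 3, 90668978 to 90670035, plus strand), was at 18826, 19891 and 19238 CPM with inhibition and 5871, 6094 and 5856 CPM with spermidine. The spermidine libraries lay 3.25-fold lower (log2 fold change -1.70 ± 0.03 SE, edgeR adjusted p 1.88e-16), and control libraries averaged 729 CPM. Ngp, a secondary granule protein, was at 10431, 10234 and 10868 CPM against 3308, 3293 and 3377 CPM, and at 110.4 CPM in control. Camp, an antimicrobial peptide precursor, fell from 4628 ± 64.4 to 1679.9 ± 29.3 CPM, Lcn2, which binds bacterial iron carriers, from 649 ± 16 to 203 ± 3.32 CPM, and Ltf, lactoferrin, from 318 ± 14.8 to 98.8 ± 2.75 CPM.

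Enzymes of the primary granule, made at an earlier stage, fell too. Mpo, myeloperoxidase, was at 2136, 2198 and 2263 CPM against 1019, 1057 and 1069.8 CPM, a log2 fold change of -1.07 ± 0.03 SE, edgeR adjusted p 1.07e-13. Elane, neutrophil elastase, was at 8884, 8768 and 9263 CPM against 4349, 4487 and 4637 CPM, a log2 fold change of -1.0 ± 0.03 SE. Ms4a3, a marker of granulocyte and monocyte progenitors, went from 2049 ± 14.9 to 947 ± 9.88 CPM. Control libraries stood at 971, 3004 and 674 CPM for these 3 genes. Whether primary and secondary granule genes differed in their fall was not tested.

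Among named genes at 5 CPM or more on average, the largest falls were in Cstdc5, Stfa1 and Stfa2l1, members of a cluster of stefin protease inhibitors whose copies can share reads, and in Slfn1, Arg2, Lrg1, Mapk13, Ifitm6, Fpr1, Fgr, Apoc2 and Olfm4. Slfn1, a growth regulator of the Schlafen family, was at 34.7, 37.0 and 36.1 CPM with inhibition and 9.26, 8.92 and 9.46 CPM with spermidine (log2 fold change -1.97 ± 0.07 SE, edgeR adjusted p 6.19e-13). Ifitm6, a membrane protein of myeloid cells, was at 423, 416 and 426 CPM against 120.2, 124 and 129 CPM (log2 fold change -1.76 ± 0.04 SE). Fpr1, which senses bacterial formyl peptides, went from 48.8 ± 1.59 to 14.6 ± 0.466 CPM, Il1r2, a decoy receptor for interleukin-1, from 78.0 ± 0.362 to 25.1 ± 0.719 CPM, and Cybb, a subunit of the NADPH oxidase of phagocytes, from 196 ± 4.76 to 65.7 ± 0.368 CPM. The groups overlapped for none of these genes.

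The summed shares show how much of each library such transcripts took. Secondary granule and mature neutrophil genes made up 5.26% to 5.39% of counts in the inhibition libraries and 2.08% to 2.15% in the spermidine libraries, with 0.210% in control. Of 23 monocyte and macrophage genes 16 were lower and 1 higher (13 and 2 by total count), and their share went from 0.457% ± 0.00649 to 0.222% ± 0.00571 (SD, n = 3). Lyz2, lysozyme of myeloid cells, fell from 4339 ± 32.4 to 1654 ± 34.7 CPM. The share of early myeloid genes went from 2.44% ± 0.0219 to 1.51% ± 0.0273 (SD, n = 3). Of 21 basophil, eosinophil and mast cell genes 17 were lower and 2 higher (15 and 2 by total count), with the basophil proteases Mcpt8 at 174 ± 4.0 against 93.5 ± 5.32 CPM and Prss34 at 62.0 ± 1.05 against 28.9 ± 1.43 CPM. No tested gene of these lists was at 0 in all 6 libraries. The higher HSC genes and the lower granule genes were measured in the same libraries, and the part of one in the other was not tested. Leaving most other-cell lists, immunoglobulin segments, nose receptors and histones out before scaling, 24 of the 39 HSC identity genes were higher and 3 lower. The megakaryocyte and platelet list and the lymphoid priming list were not among those left out. Transcripts of other cells that are on no list stayed in too, so this count does not test that part.

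Transcripts of antibody-secreting cells were also lower. Igkc, the constant part of the kappa light chain, was at 3932, 3874 and 4273 CPM with inhibition and 1416, 1459.6 and 1538 CPM with spermidine, and at 4.53 CPM in control. Jchain, which joins antibody units, was at 599.7, 564 and 572 CPM against 191, 189 and 202 CPM (log2 fold change -1.58 ± 0.04 SE, edgeR adjusted p 1.52e-14). Of 105 tested immunoglobulin segments 80 were lower and 11 higher (71 and 13 by total count), and their share of counts went from 0.637% ± 0.0145 to 0.307% ± 0.0109 (SD, n = 3). Among the higher segments was Igkv12-41, singled out after its values were seen, at 1.23, 1.54 and 1.20 CPM against 11.9, 12.3 and 12.9 CPM, so single segments did not all follow the constant regions. The wider B and plasma cell list held 12 lower and 6 higher of 25 under TMM and 8 lower and 10 higher by total count, so its balance turned. T and NK cell genes had 8 lower and 5 higher of 20 under TMM and 7 lower and 6 higher by total count. Of the stroma, endothelium and bone list there were 9 lower and 7 higher of 22 under TMM and 5 lower and 9 higher by total count, also a turned balance. Background shares for these lists were 28.9% lower and 29.1% higher under TMM, and 12.5% and 53.3% by total count. In the last of these, Bglap, osteocalcin of bone-forming cells, was at 6.57, 9.46 and 9.99 CPM against 1.05, 0.743 and 1.22 CPM, whereas Emcn, a sialomucin of vessels and of HSCs, rose from 16.3 ± 1.37 to 28.5 ± 0.849 CPM.

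Lymphoid priming genes, which the earliest lymphoid progenitors switch on, were more often higher than lower. Of 24 tested, 12 were higher and 7 lower, with a median of 0.33, and by total count 16 and 3. The shares of all tested genes were 29.1% higher and 28.9% lower under TMM, and 53.3% and 12.5% by total count. Falls on this list were thus near the share of all genes under both scalings. Dntt, which adds bases at antigen receptor joints, was at 52.9, 51.1 and 51.3 CPM with inhibition and 67.4, 67.3 and 67.2 CPM with spermidine, a log2 fold change of 0.38 ± 0.04 SE, edgeR adjusted p 4.46e-07. Cd27, a receptor of the TNF family, rose from 40.2 ± 1.10 to 57.7 ± 1.38 CPM, and Il12a, a chain of interleukin-12, from 113 ± 1.61 to 159 ± 1.48 CPM. The members that fell under both scalings, named after their values were seen, were Vpreb1 and Igll1, which form the surrogate light chain of pre-B cells, and their relative Vpreb3. Vpreb3 went from 7.70 ± 1.10 to 3.67 ± 0.0798 CPM.

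**Figure D2:**
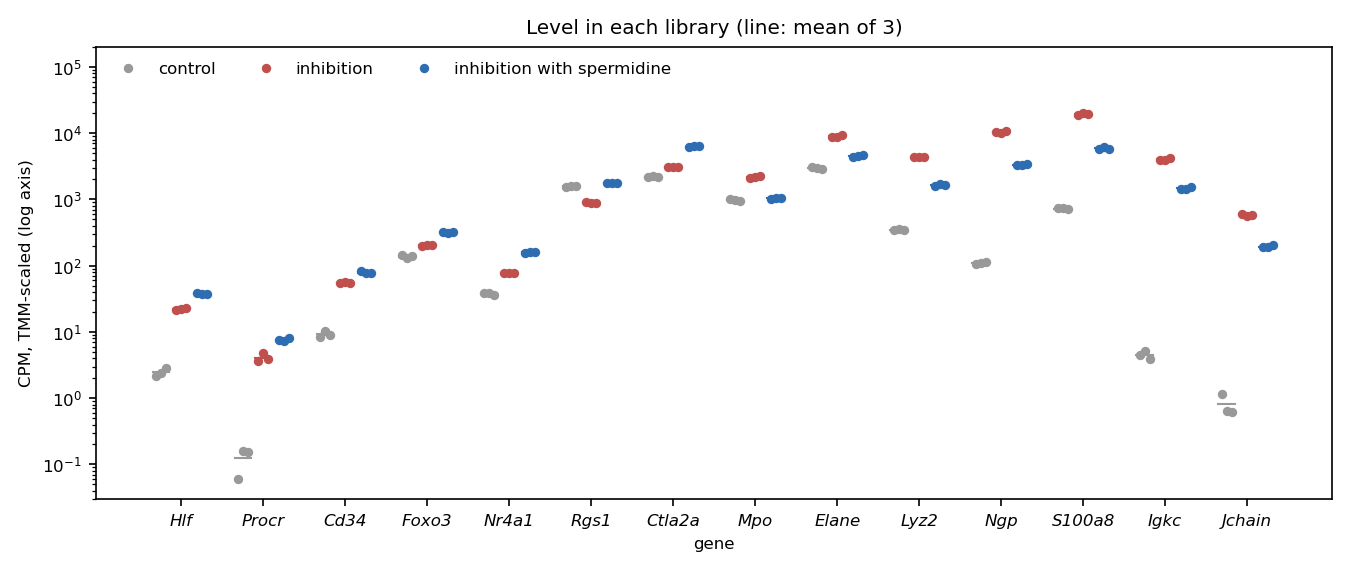
CPM (TMM-scaled, log axis) of 14 named genes in each of the 9 libraries (points), with the mean of each group as a line. HSC and early-response genes such as Hlf and Nr4a1 lie higher with spermidine than with inhibition, and granule and antibody genes such as Ngp and Igkc lower, with all 3 libraries of a group close together.

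Immediate-early genes, which respond within minutes to stimulation and also to cell dissociation, rose nearly as a block. Of 33 tested, 30 were higher, 1 lower and 2 did not pass. The median log2 fold change was 0.50. By total count 31 were higher and none lower, against 53.3% and 12.5% of all genes. The list's share of counts went from 0.412% ± 0.00895 to 0.725% ± 0.00561 (SD, n = 3), and was 0.575% in control. Rgs1, which dampens chemokine receptor signalling, was at 923, 895 and 896 CPM with inhibition and 1793, 1766 and 1791 CPM with spermidine, and at 1581 CPM in control. Atf3, a stress-induced transcription factor, was at 35.0, 33.5 and 31.8 CPM against 57.7, 61.2 and 56.9 CPM, a log2 fold change of 0.81 ± 0.05 SE, edgeR adjusted p 3.11e-10. The AP-1 genes Fos and Jun rose from 294 ± 7.79 to 373 ± 6.99 CPM and from 75.4 ± 1.80 to 106 ± 4.05 CPM, with control at 487 and 326 CPM. Egr1, a zinc finger factor of the same response, rose from 19.1 ± 1.60 to 29.9 ± 3.13 CPM. The gene that passed as lower under TMM was Egr2, at 1.45 ± 0.607 against 0.791 ± 0.157 CPM, named after its value was seen. That call was lost by total count (edgeR adjusted p 0.0898) and without inhibition replicate 3 (0.205) or spermidine replicate 2 (0.0702) or 3 (0.064). Genes of this list are also known to respond to handling during cell preparation. The labels give no preparation time, and its part was not tested.

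Of 35 NF-kB and inflammatory genes 15 were higher and 8 lower, and of 41 type I interferon genes 14 and 8 (5 lower without inhibition replicate 2 or spermidine replicate 2). Glucocorticoid and adrenergic genes split evenly, 10 higher and 10 lower of 25. Chromatin and DNA methylation regulators held 16 higher and 6 lower of 41 (10 lower without inhibition replicate 1). All tested genes stood at 29.1% higher and 28.9% lower under TMM. By total count these lists held more rises than falls, 22 and 4, 27 and 2, 12 and 8, and 31 and 1 in the same order, against 53.3% and 12.5% of all genes.

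Genes of cell division fell, most plainly those of mitosis. Of 35 mitosis genes 29 were lower, 1 higher and 5 did not pass under TMM, with a median of -0.49. By total count 24 were lower and 2 higher, against 12.5% and 53.3% of all genes. Cdk1, the kinase that drives entry into mitosis, was at 130.0, 126 and 124 CPM with inhibition and 77.7, 73.8 and 72.8 CPM with spermidine. The libraries did not overlap, with a log2 fold change of -0.76 ± 0.04 SE, edgeR adjusted p 3.47e-11, or -0.50 by total count. Its partner cyclin Ccnb1 went from 148, 142 and 149.5 to 79.4, 82.8 and 85.1 CPM, a log2 fold change of -0.83 ± 0.04 SE. Ccnb2, the second B-type cyclin, fell from 287 ± 2.77 to 196 ± 3.52 CPM and Birc5, survivin of the chromosomal passenger complex, from 353 ± 5.60 to 222 ± 1.96 CPM. Control levels were 76.7 CPM for Cdk1, 95.8 for Ccnb1, 206 for Ccnb2 and 371 for Birc5. The member that passed as higher under TMM was Kif23, a kinesin of cytokinesis named after its value was seen, at 26.7 ± 1.28 against 30.0 ± 1.17 CPM. That call was lost without inhibition replicate 2 (edgeR adjusted p 0.0748) or 3 (0.0538) or spermidine replicate 3 (0.0574).

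Of 41 S phase and DNA replication genes 37 were lower and none higher under TMM, but 13 were lower and 4 higher by total count, against 12.5% and 53.3% of all genes. Rrm2, a subunit of ribonucleotide reductase, was at 209, 214 and 205 CPM against 112, 123 and 112 CPM (log2 fold change -0.85 ± 0.04 SE, and -0.59 by total count). Replication-dependent histones, whose transcripts mostly lack a poly(A) tail, held 33 lower and 1 higher of 59 under TMM and 17 lower and 8 higher by total count. The CDK inhibitors of the CIP/KIP family rose under both scalings. Cdkn1a, which encodes p21, rose from 30.5 ± 1.79 to 40.3 ± 2.12 CPM and Cdkn1b, which encodes p27, from 148 ± 7.54 to 179 ± 1.89 CPM. Over 15 CDK inhibitors and D-type cyclins, 6 were higher and 5 lower, or 3 lower without inhibition replicate 2, and by total count 10 were higher and none lower. Foxo3, a transcription factor of HSC quiescence, was at 202, 209 and 202 CPM with inhibition and 324, 316 and 321 CPM with spermidine, a log2 fold change of 0.65 ± 0.03 SE, edgeR adjusted p 1.50e-10. Myc, a transcription factor that drives growth, also rose, from 78.8 ± 2.51 to 100.2 ± 1.42 CPM. The p53 target list held 13 lower and 11 higher of 35 under TMM and 4 lower and 19 higher by total count. FOXO and mTOR genes had 5 lower and 12 higher of 33 under TMM and 1 lower and 21 higher by total count. Background shares were 28.9% lower and 29.1% higher under TMM, and 12.5% and 53.3% by total count. The p53 target counts by total count were near these shares.

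Mitosis promoters carry known letters, shown here because these genes moved together. The CHR, searched as TTTGAA, is the element through which the DREAM complex shuts such genes off in resting cells, and CCAAT is bound by NF-Y. In windows of 250 bases before to 50 after the gene start (RefSeq, GRCm38.p6), searched on both strands, 23 of 31 mitosis genes with a window held TTTGAA (74.19%), against 18.11% of 27025 promoters. CCAAT was in 24 of the 31 (77.42%) against 37.92% of all. The promoters of Cdk1 (chr10:69352863-69353162, minus strand) and Ccnb2 (chr9:70421505-70421804, minus strand) are printed 5′ to 3′ along the gene, with CCAAT (or its reverse ATTGG) and TTTGAA in capitals.
Cdk1: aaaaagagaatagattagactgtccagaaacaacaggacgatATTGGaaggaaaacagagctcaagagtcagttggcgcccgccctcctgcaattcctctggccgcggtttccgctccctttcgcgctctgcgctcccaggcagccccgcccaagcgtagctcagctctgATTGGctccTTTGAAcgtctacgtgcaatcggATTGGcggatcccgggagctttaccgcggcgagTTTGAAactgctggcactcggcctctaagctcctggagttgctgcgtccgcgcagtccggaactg
Ccnb2: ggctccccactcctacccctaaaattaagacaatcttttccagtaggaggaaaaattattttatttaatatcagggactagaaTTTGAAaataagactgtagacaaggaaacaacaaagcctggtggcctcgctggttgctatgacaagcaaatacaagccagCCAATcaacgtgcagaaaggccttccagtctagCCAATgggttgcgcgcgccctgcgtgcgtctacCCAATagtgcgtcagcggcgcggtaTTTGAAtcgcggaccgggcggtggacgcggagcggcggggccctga
Of the 23 mitosis genes with TTTGAA, 17 were lower and 1 higher under TMM, and 14 were lower under both scalings. In the whole list of 35, 29 were lower, 1 higher and 5 did not pass under TMM, and 24 were lower under both scalings. Every list member that was not lower under TMM was among the 23 with TTTGAA, and the members outside these 23 were all lower. Over all 1529 tested genes with TTTGAA in the window, 496 were higher and 442 lower. A match is a description of the sequence and not a bound site.

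**Figure D3:**
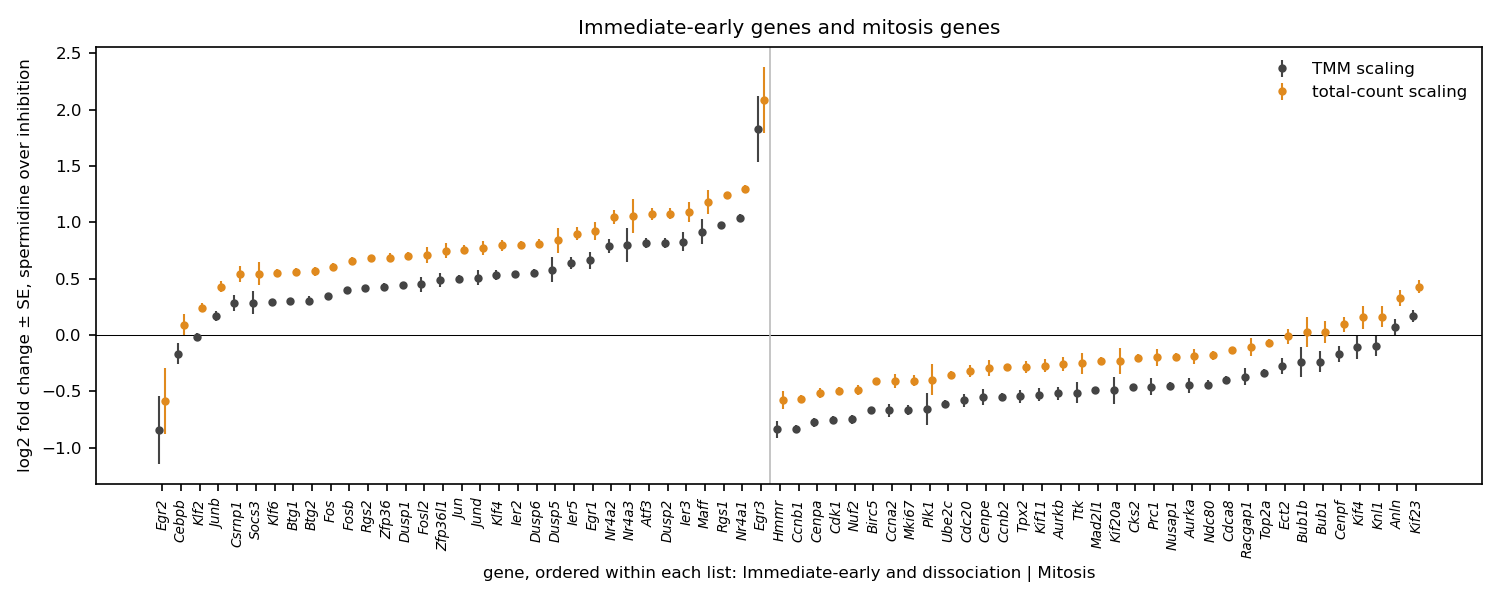
Log2 fold change ± SE (spermidine over inhibition) of each tested immediate-early gene (left) and mitosis gene (right) under TMM and total-count scaling. Most immediate-early genes lie above 0 and most mitosis genes below 0 under both scalings. Egr2 and Kif23 are among those on the other side of 0 from most of their list.

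Genes of the unfolded protein response, by which cells raise folding capacity in the endoplasmic reticulum, were mostly lower under TMM. Of 34 genes of this and the integrated stress response 24 were lower and 5 higher, with a median of -0.39. By total count 17 were lower and 8 higher, against 12.5% and 53.3% of all genes. The 5 genes higher under TMM, among them Atf3 (log2 fold change 0.81), were higher by total count too. Dnajc3, a co-chaperone that restrains PERK, was at 198, 211 and 197 CPM with inhibition and 111, 106 and 103 CPM with spermidine (log2 fold change -0.92 ± 0.04 SE, edgeR adjusted p 6.72e-12). Hsp90b1, the chaperone GRP94, was at 517, 505 and 522 CPM against 319, 298 and 309 CPM, and Calr, calreticulin, at 366, 363 and 379 CPM against 223, 221 and 223 CPM. Manf, a secreted factor induced by the same stress, fell from 905 ± 6.86 to 519.8 ± 7.01 CPM. Control means were 102 CPM for Dnajc3, 293 for Hsp90b1, 208 for Calr and 492 for Manf. Antibody-secreting cells are known for high levels of such genes, and the immunoglobulin share given above was lower in the same libraries. Its part in this fall was not tested.

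The ER stress response element, searched as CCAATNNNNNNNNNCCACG on both strands, is bound by NF-Y and ATF6. Its letters stood in 7 of 32 promoters of this list (21.88%) and in 35 of all 27025 (0.1295%). All 7 genes, Hspa5, Canx, Pdia6, Creld2, Calr, Hsp90b1 and Dnajc3, were lower under TMM, and 5 under both scalings. The exceptions were Canx, which did not pass by total count, and Hspa5, the chaperone BiP. Hspa5 had a log2 fold change of -0.10 ± 0.03 SE under TMM and passed as higher by total count, at 0.16. The promoters of Calr (chr8:84846882-84847181, minus strand), Hsp90b1 (chr10:86705395-86705694, minus strand) and Dnajc3 (chr14:118937682-118937981, plus strand) follow in the same form, with the element or its reverse complement in capitals.
Calr: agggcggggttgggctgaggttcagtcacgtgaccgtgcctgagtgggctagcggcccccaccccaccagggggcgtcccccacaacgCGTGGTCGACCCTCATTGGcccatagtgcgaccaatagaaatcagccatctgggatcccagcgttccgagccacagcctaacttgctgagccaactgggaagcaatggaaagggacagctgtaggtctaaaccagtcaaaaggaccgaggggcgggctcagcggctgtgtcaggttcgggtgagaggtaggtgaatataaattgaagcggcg
Hsp90b1: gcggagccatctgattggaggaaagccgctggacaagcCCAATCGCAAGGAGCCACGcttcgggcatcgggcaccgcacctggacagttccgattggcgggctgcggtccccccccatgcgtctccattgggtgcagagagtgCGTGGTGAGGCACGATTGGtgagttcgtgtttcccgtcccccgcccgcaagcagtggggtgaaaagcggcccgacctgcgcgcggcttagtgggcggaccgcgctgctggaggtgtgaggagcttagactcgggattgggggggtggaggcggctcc
Dnajc3: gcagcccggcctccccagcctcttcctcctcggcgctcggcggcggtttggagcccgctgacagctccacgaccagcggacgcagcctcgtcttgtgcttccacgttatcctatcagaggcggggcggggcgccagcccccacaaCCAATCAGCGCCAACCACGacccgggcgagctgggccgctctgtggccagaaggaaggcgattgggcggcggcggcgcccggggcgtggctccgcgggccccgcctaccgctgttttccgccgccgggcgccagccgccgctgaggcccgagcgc
Over all 16 tested genes whose window held these letters, 3 were higher and 8 lower under TMM. The 8 include the 7 list genes above, and the 3 higher genes were not on the list. Cytosolic chaperones held 17 lower and 2 higher of 24, and by total count 7 and 8.

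Genes that make, break down and carry polyamines changed in both directions. Of 20 tested synthesis and catabolism genes 5 were higher and 9 lower under TMM, against 9 and 3 by total count. Shares over all tested genes were 29.1% higher and 28.9% lower under TMM, and 53.3% and 12.5% by total count. Apart from the 9 falls under TMM, the counts of this list were near those shares. Odc1, the first enzyme of synthesis, was at 96.2, 91.8 and 99.4 CPM with inhibition and 112, 113 and 117 CPM with spermidine. Without overlap between groups, its log2 fold change was 0.25 ± 0.04 SE, edgeR adjusted p 2.10e-05. Amd1, which supplies the aminopropyl groups for spermidine, was at 118, 120.0 and 116 CPM against 86.6, 86.7 and 90.9 CPM, a log2 fold change of -0.42 ± 0.04 SE, edgeR adjusted p 3.95e-08. Srm, spermidine synthase, was at 109, 117 and 121 CPM against 93.9, 96.1 and 99.8 CPM and passed as lower under TMM (log2 fold change -0.26) but not by total count (-0.00, edgeR adjusted p 0.968). Sms, spermine synthase, did not pass under TMM (log2 fold change -0.08, edgeR adjusted p 0.131).

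On the catabolic side, Sat1, the acetyltransferase that marks spermidine for export, was at 425, 421 and 425 CPM with inhibition and 299, 309 and 307 CPM with spermidine. It fell under both scalings, by log2 fold changes of -0.47 and -0.21, and stood at 151 CPM in control. Smox, spermine oxidase, was at 1.90, 1.83 and 2.20 CPM with inhibition and 3.87, 3.44 and 3.15 CPM with spermidine, a log2 fold change of 0.83 ± 0.15 SE at low level. Paox, which oxidises acetylated polyamines, passed as lower under TMM alone (log2 fold change -0.35, and -0.09 by total count). Arg2, the mitochondrial arginase that yields ornithine, was at 8.90, 8.09 and 7.09 CPM against 2.70, 1.99 and 2.27 CPM, a log2 fold change of -1.78 ± 0.17 SE, edgeR adjusted p 2.67e-07. Of 18 transport and arginine supply genes 5 were higher (3 without spermidine replicate 3) and 8 lower under TMM, and 9 higher and 4 lower by total count. These counts stand beside 29.1% higher and 28.9% lower of all genes under TMM, and 53.3% and 12.5% by total count. Atp13a2, a lysosomal polyamine exporter, was higher under both scalings (5.95 ± 0.517 to 7.80 ± 0.363 CPM).

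Of 13 genes of eIF5A hypusination and the TFEB axis 3 were higher and 4 lower under TMM, and 6 higher and 3 lower by total count. This stands beside 29.1% higher and 28.9% lower of all genes under TMM, and 53.3% and 12.5% by total count. The TMM counts of this short list were near the shares of all genes. None of the 3 higher under TMM was Eif5a, an enzyme of hypusination or Tfeb. They were Kat2b, Mitf and Eif5a2, named after their values were seen, of which Eif5a2, the second eIF5A gene, went from 3.44 ± 0.494 to 4.50 ± 0.673 CPM. Of the 3, Mitf was lost without any 1 library but inhibition replicate 3, and Eif5a2 without any 1 but inhibition replicate 3 and spermidine replicate 1 (edgeR adjusted p 0.0854 to 0.161 for Mitf and 0.0927 to 0.181 for Eif5a2). Eif5a, the protein that carries hypusine, was at 730.2, 730.2 and 761 CPM with inhibition and 560.2, 556 and 570.0 CPM with spermidine, and fell under both scalings (log2 fold changes -0.40 and -0.14). Dhps, which attaches the spermidine moiety, was at 15.0, 13.9 and 11.5 CPM against 9.95, 10.8 and 9.90 CPM and passed as lower under TMM (edgeR adjusted p 0.00232) but not by total count (0.255). Dohh, which completes hypusine, did not pass, at 2.82 ± 0.371 against 2.62 ± 0.320 CPM. Tfeb did not pass either, at 1.66, 0.913 and 0.60 CPM against 0.886, 0.508 and 0.553 CPM with overlapping libraries (edgeR adjusted p 0.14), although it passed as lower without inhibition replicate 3 (0.0402). These are transcript levels, and hypusination and translation were not measured.

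Autophagy genes split and lysosome genes leaned lower. Of 43 autophagy genes 13 were higher and 15 lower, and by total count 24 and 4. All tested genes stood at 29.1% higher and 28.9% lower under TMM, and 53.3% and 12.5% by total count. The autophagy counts were thus near the shares of all genes. Map1lc3b, the LC3 protein of autophagosomes, went from 1152 ± 24.9 to 1262 ± 20.8 CPM and Sqstm1, the cargo receptor p62, from 10.6 ± 0.624 to 12.7 ± 0.787 CPM, both higher under both scalings. The call of Sqstm1 was lost without inhibition replicate 1 (edgeR adjusted p 0.0805). Of 40 lysosome genes 29 were lower and 1 higher under TMM, and 16 and 9 by total count. Lamp2, a lysosomal membrane protein, was lower under both scalings, at 189 ± 8.95 against 123 ± 2.52 CPM.

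**Figure D4:**
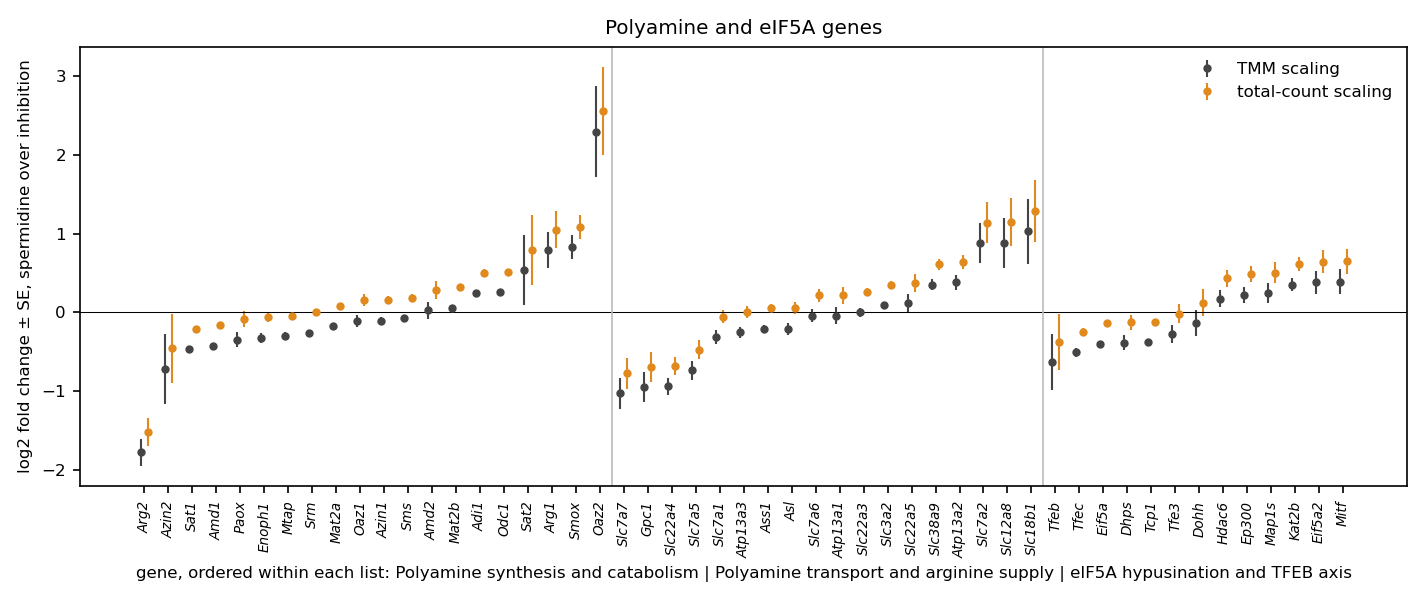
Log2 fold change ± SE (spermidine over inhibition) of each tested gene of polyamine synthesis and catabolism, polyamine transport and arginine supply, and the eIF5A and TFEB axis, under TMM and total-count scaling. Genes lie on both sides of 0 in all 3 lists, from Arg2 at -1.78 to Oaz2 at 2.30, and several near 0 change side with the scaling.

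Oaz2, an antizyme that restrains ODC1 and was named after its value was seen, had the largest fold change of these lists. It was at 1.23, 0.996 and 0.60 CPM with inhibition and 1.41, 6.02 and 6.69 CPM with spermidine, so spermidine replicate 1 lay near the inhibition libraries. Its effective transcript length, the ratio of counts to TPM, differed between groups by 0.71 on the log2 scale. A shift above 0.5 in either direction was found in 726 of 14263 genes with a value.

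Energy and growth genes gave calls that depended on the scaling. Of 76 nuclear genes of oxidative phosphorylation 72 were lower under TMM and none higher, but by total count 31 were lower and 14 higher. Mitochondrially encoded genes had 7 lower of 13 under TMM and 8 higher by total count. Of 81 cytosolic ribosomal protein genes 63 were lower under TMM, and by total count 6 were lower and 36 higher. Mitochondrial ribosomal proteins had 66 lower of 78 under TMM, and 24 lower and 24 higher by total count. Cytosolic ribosomal and mitochondrially encoded genes thus held mostly falls among calls under TMM and mostly rises by total count, where 36 of 81 and 8 of 13 stand beside the 53.3% of all genes. Nuclear genes of oxidative phosphorylation were lower more often than the 12.5% of all genes by total count. Cycs, cytochrome c, was lower under both scalings, from 560.1 ± 39.4 to 333 ± 12.7 CPM, and so was Rps2, from 841 ± 10.5 to 585 ± 16.3 CPM.

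The balance of most other lists of growth and metabolism also depended on the scaling. Ribosome biogenesis genes held 18 lower and 2 higher of 38 under TMM and 6 lower and 17 higher by total count. Translation initiation genes had 22 lower and 4 higher of 38 under TMM and 7 lower and 16 higher by total count. For cholesterol synthesis the counts were 13 lower and 3 higher of 25 under TMM and 5 lower and 11 higher by total count. These 3 lists thus held more falls than rises under TMM and more rises than falls by total count, with the rises below the 53.3% of all genes. Proteasome genes held 28 lower and 3 higher of 36 under TMM and 13 lower and 10 higher by total count. The NRF2 targets had 20 lower and 3 higher of 32 under TMM and 13 lower and 14 higher by total count. Among glycolysis and hypoxia genes there were 15 lower and 7 higher of 30 under TMM and 12 lower and 13 higher by total count. Fatty acid oxidation genes had 5 lower and 8 higher of 29 under TMM, beside 28.9% and 29.1% of all genes. By total count 4 were lower and 18 higher, beside 12.5% and 53.3% of all genes. Among single enzymes, G6pdx, which opens the pentose phosphate pathway, was at 32.0, 33.1 and 33.6 CPM against 12.2, 11.2 and 13.2 CPM, a log2 fold change of -1.44 ± 0.06 SE, edgeR adjusted p 1.29e-11, with 12.5 CPM in control. Eno1, enolase of glycolysis, fell from 196 ± 5.08 to 116 ± 3.22 CPM. Both calls held by total count.

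Actin genes fell under both scalings. Of 30 genes of actin and its regulators 25 were lower and none higher under TMM, and 18 lower and 3 higher by total count, against 12.5% lower among all genes. Actb, beta-actin, took the largest share of counts of any gene, at 7.87%, 7.21% and 8.72% with inhibition, 6.13%, 5.11% and 5.99% with spermidine and 3.45% to 3.73% in control. Tmsb4x, thymosin beta 4 that binds actin monomers, fell from 6590.1, 6504 and 6522 to 3646, 3426 and 3481 CPM. Adhesion and homing genes held 18 lower and 5 higher of 29 under TMM, beside 28.9% and 29.1% of all genes. By total count 7 were lower and 14 higher, beside 12.5% and 53.3% of all genes. Ubb, a polyubiquitin gene, was among the 3 most abundant genes of each group and took 1.73% of counts with inhibition and 2.34% with spermidine on average.

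**Figure D5:**
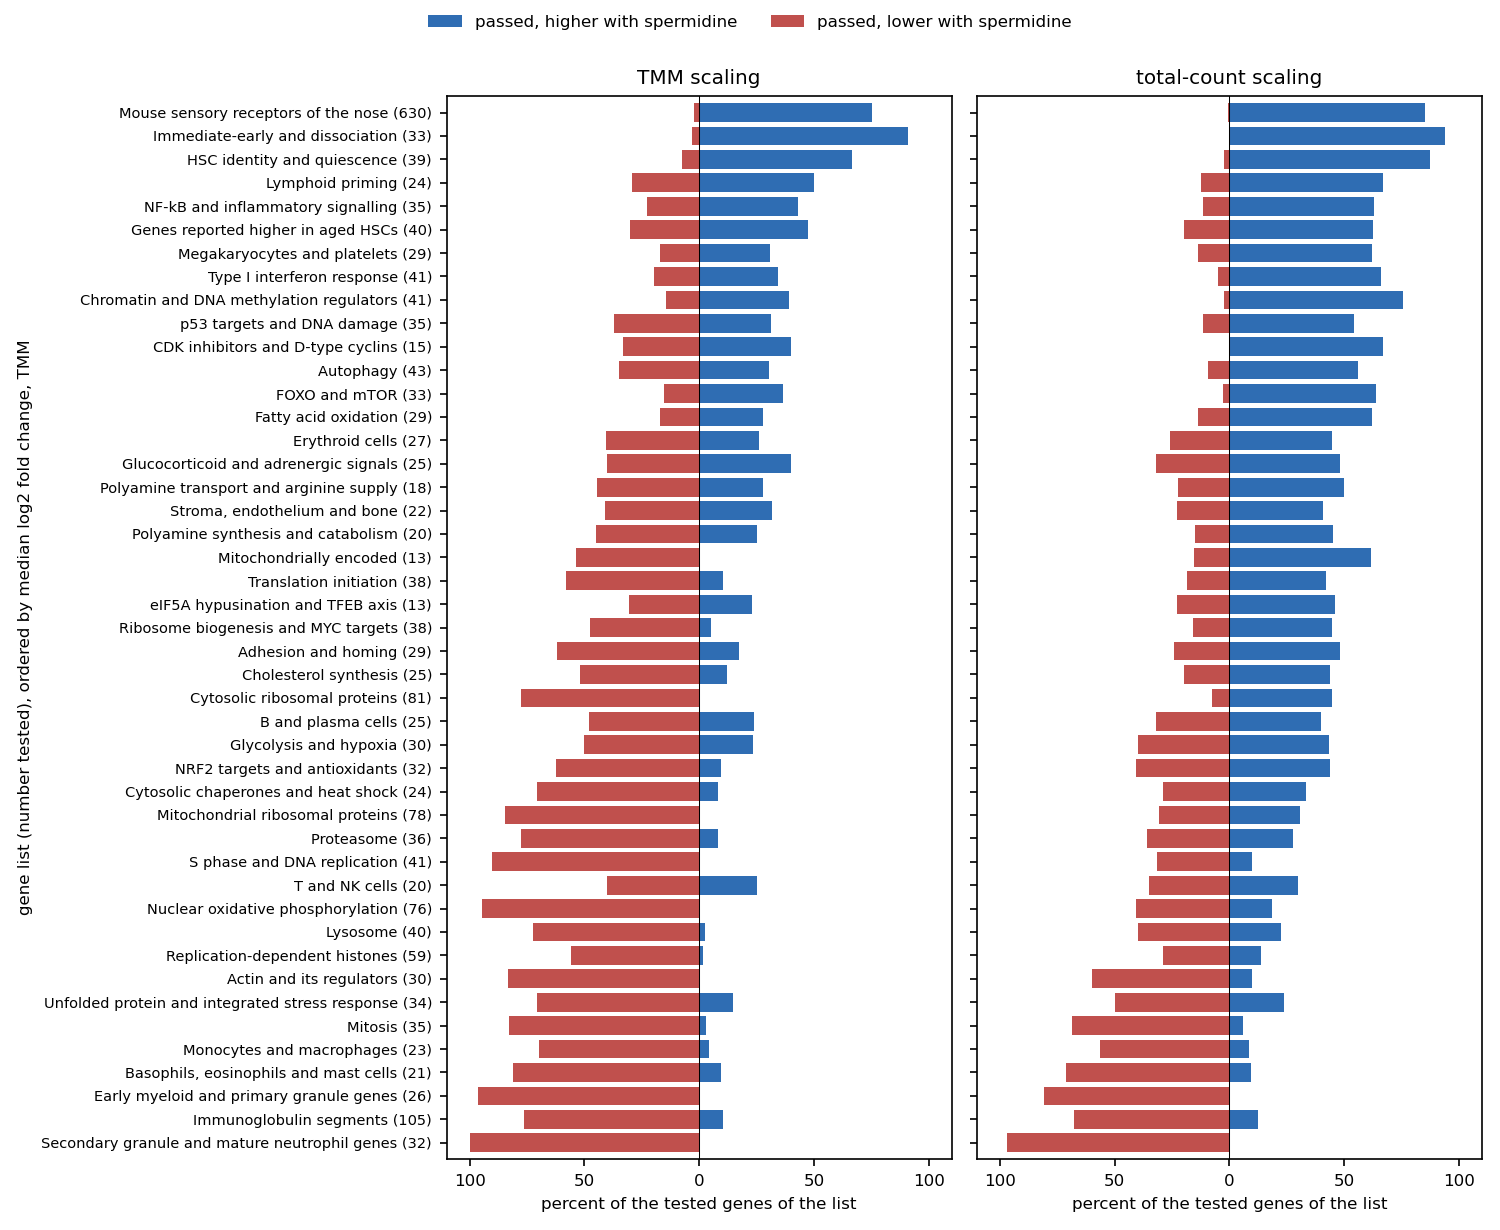
Percent of the tested genes of each list (number tested in brackets) that passed as higher (right of 0) or lower (left of 0) with spermidine, under TMM (left panel) and total-count scaling (right panel). Immediate-early and HSC identity genes were mostly higher and granule genes mostly lower in both panels, whereas cytosolic ribosomal protein genes changed side.

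Erythroid and megakaryocytic genes moved in both directions. Of 27 erythroid genes 7 were higher and 11 lower under TMM, and 12 higher and 7 lower by total count. Car2, carbonic anhydrase 2, rose from 695 ± 11.0 to 930.3 ± 18.8 CPM. Hba-a2, an alpha-globin gene with a near-identical copy, fell from 307, 327 and 346 to 138, 142 and 148 CPM. Of 29 megakaryocyte and platelet genes 9 were higher and 5 lower, and by total count 18 and 4. Both lists stand beside 29.1% higher and 28.9% lower of all genes under TMM, and 53.3% and 12.5% by total count. The 9 megakaryocyte and platelet rises under TMM were near the share of all genes. Pf4 was at 100.1, 107 and 103 CPM against 95.7, 101 and 95.6 CPM with overlapping libraries, passing as lower under TMM (log2 fold change -0.09) and as higher by total count (0.17). The TMM call of Pf4 was lost without inhibition replicate 2 (edgeR adjusted p 0.0887) or spermidine replicate 1 (0.0756) or 3 (0.0714). Itga2b, the integrin chain CD41, rose from 3.74 ± 0.267 to 4.88 ± 0.451 CPM, and Cd9, a tetraspanin of platelets and HSCs, fell from 308 ± 2.39 to 213 ± 2.45 CPM.

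Genes reported as higher in aged HSCs moved both ways, 19 higher and 12 lower of 40, with a median of 0.24. By total count 25 were higher and 8 lower. Clu, clusterin, was at 36.0, 38.9 and 40.8 CPM against 16.4, 17.3 and 17.3 CPM, a log2 fold change of -1.18 ± 0.06 SE, edgeR adjusted p 8.24e-11, and control libraries averaged 17.2 CPM. Mt1, a metallothionein that binds zinc, fell from 513, 539 and 552 to 269, 278 and 279.5 CPM, against 681 CPM in control. Lmna, a nuclear lamin, rose from 9.95, 11.0 and 10.3 to 23.1, 24.9 and 23.2 CPM (log2 fold change 1.18 ± 0.07 SE). The list's summed share was 0.166% to 0.170% of counts with inhibition and 0.162% to 0.168% with spermidine, and these ranges overlap. The 12 falls stand beside 28.9% of all tested genes under TMM and the 19 rises beside 29.1%.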

How the data were processed

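Bone marrow HSCs, 1500 sorted cells per library, were profiled by poly(A) RNA-seq in 9 libraries, 3 per group. The submitters' processing notes name mm10, edgeR 3.24.3, HTSeq 0.10.0, STAR 2.6.1d and Trim Galore 0.6.2, with no roles stated. The authors deposited estimated counts per gene, of which 48.2% were whole within 1e-06, and TPM values. Which step made the other counts fractional is not given in the sources used here.

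Estimated counts were rounded. One fit over all 9 libraries (edgeR 4.0.16 quasi-likelihood test in R 4.3.3, group means, TMM, filterByExpr, Benjamini-Hochberg threshold 0.05) tested 14461 genes, and it was repeated with total-count scaling. Alternatives used DESeq2 1.42.0, limma 3.58.1 on log2(TPM + 1), other filters, a replicate block and leaving out each library. The edgeR step was tested on simulated data in which few genes changed, equally in both directions. Such data hold no shift that depends on the scaling, so they do not test that part of the results. CPM values are TMM-scaled and carry no prior count. Totals were 16096117 to 25360110 counts per library. The floors cover counting error only, whereas the SE and SD include the spread between libraries. Replicates of a group differed by more than sampling noise. Antisense and overlapping genes cannot be separated, since the strand setting is not given in the sources used here.

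The comparison, its members and all 45 gene lists were chosen with earlier results of these data known. Named genes were the 12 genes in each direction with the largest change at 5 CPM or more, and the 8 at 100 CPM or more, called the same way under both scalings with no overlap of groups. Unnamed gene models, pseudogenes and receptor segments were left out of these. Added to them were up to 5 genes per list with the smallest p, key genes of the question, and the 5 genes with the largest share of counts. Flt3, Canx, Creld2, Pdia6, Hspa5, Egr2, Eif5a2, Mitf, Igkv12-41, Igll1, Vpreb1, Vpreb3, Kdm5d, Kif23, Oaz2 and Uty fall outside this rule and were chosen after their values were seen. Of 1505 list entries 15 had no match in the table. Genes were placed by GENCODE M21, and promoters came from RefSeq GRCm38.p6, where 11163 tested genes had a window.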

Additional observations from a re-analysis of the deposited data

How the results depend on the processing

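Among the alternatives run, the numbers of genes called moved most with total-count scaling, 7703 higher and 1801 lower, and with limma on log2(TPM + 1), 7112 and 1256, against 4213 and 4183. The latter changes the test, the measure and the scaling together. Of the 8396 calls, 6014 kept their direction by total count and 5148 with limma, while 355 and 521 turned. Size factors of DESeq2 in edgeR gave 3989 and 4386 calls, and DESeq2 itself 3075 and 3824. Without a filter the counts were 4427 and 4754, and with only the 6 libraries 4193 and 4144. Without genes of most other-cell lists, immunoglobulins, nose receptors and histones they were 3819 and 3794. Among alternatives chosen after seeing the data, genes of at least 1 TPM gave 3040 and 2961, and genes of unshifted effective length 4063 and 4005. Leaving out 1 library at a time gave 3713 to 3860 higher and 3896 to 4302 lower genes.

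The replicate numbers in the labels name no shared animal, and same-numbered libraries did not deviate together (correlations of -0.0365 to 0.0526), so the block is given only here. With the replicate block, 4186 genes were higher and 4219 lower, and all 129 genes named in the text kept their call.

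Directions that turned were small. By total count the log2 fold changes were 0.12 for Dohh, 0.16 for Hspa5, 0.17 for Pf4 and 0.18 for Sms. With limma on log2(TPM + 1) they were 0.0015 for Canx, 0.14 for Dohh, 0.20 for Hspa5, 0.22 for Pf4, 0.0032 for Slamf1, 0.20 for Sms and 0.037 for Srm. With genes of at least 1 TPM, Sms was at 0.0078. The cause of these changes was not tested. A count of 0 allows up to 0.117 to 0.184 CPM, so low genes such as Tfeb have wide errors.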
